A study of Mus musculus with 6 samples.

Results

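Serpins are a family of proteins, most of them protease inhibitors, and the levels of their genes were compared in sorted cells of the subventricular zone (SVZ), the stem cell niche along the lateral ventricles of the adult mouse brain. Members were the rows whose symbol has the form Serpin, a clade letter from a to i and a number, which gave 69 of the 55487 genes of the table. Of these, 29 belong to clade B, 39 to clades A, C, D, E, F, G and I, which are called the secreted clades below, and 1 is Serpinh1 of clade H. By the GENCODE annotation 7 of the members are pseudogenes.

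The libraries were of 2 genotypes. TKO mice were Rb(F/F);p107(-/-);p130(F/F), so they had floxed alleles of Rb and p130 on both chromosomes and no intact p107. THC mice, the control group, were Rb(F/+);p107(+/-);p130(F/+), so they also lacked 1 copy of p107 and carried a floxed copy of Rb and of p130. All mice carried NestinCreERT2, a tamoxifen-inducible Cre under Nestin regulatory sequence, and an EYFP reporter at the Rosa26 locus, on a mixed C57BL/6;Sv/129 background. Mice aged 6 to 10 weeks were given tamoxifen (200 mg/kg/day) over 5 days. The SVZ was dissected 10 days after the last dose, and several mice were pooled to reach at least 200000 YFP-positive cells per sample. There were 3 TKO and 3 THC samples. TKO 1 and THC 1 formed a February batch, and the other 4 samples a November batch.

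An inhibitory serpin offers a flexible loop near its carboxyl end as bait. When a protease cuts this reactive loop, the serpin folds around and holds the enzyme, so both are used up. Clade B serpins lack a classical signal peptide and act mostly inside cells, against granzymes, cathepsins and leaked lysosomal or granule proteases. Most other clades are secreted and act on coagulation, complement and plasminogen activation, which in the brain are used by glia, vessels and migrating neuroblasts.

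The reactive loop decides which protease an inhibitory serpin can hold, and for that reason the loop-coding DNA of the 6 clade B genes with enough reads to test is shown here. Each stretch runs from the hinge of the loop to the proline and phenylalanine codons after it. Capitals mark the first 4 codons, which are the hinge motif, and those last 2 codons. The sequences are from GENCODE M21 transcripts (GRCm38), 5′ to 3′ on the coding strand, and each lies in 1 exon.
Serpinb8: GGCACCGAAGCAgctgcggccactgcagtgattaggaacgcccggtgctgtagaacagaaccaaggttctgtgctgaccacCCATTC
Serpinb1a: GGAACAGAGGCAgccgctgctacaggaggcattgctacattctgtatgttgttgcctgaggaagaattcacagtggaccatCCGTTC
Serpinb1b: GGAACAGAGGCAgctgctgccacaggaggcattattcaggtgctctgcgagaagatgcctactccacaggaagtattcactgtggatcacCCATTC
Serpinb6a: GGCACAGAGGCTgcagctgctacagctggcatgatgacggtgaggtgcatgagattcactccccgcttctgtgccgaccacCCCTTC
Serpinb6b: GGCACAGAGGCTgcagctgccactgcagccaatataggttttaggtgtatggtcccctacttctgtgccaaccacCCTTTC
Serpinb9: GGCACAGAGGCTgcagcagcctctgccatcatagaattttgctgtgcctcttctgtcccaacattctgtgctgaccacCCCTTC
The stretch of Serpinb8 is at chr1:107607173-107607259 on the plus strand. On chromosome 13, that of Serpinb1a is at chr13:32842884-32842970 and that of Serpinb6a at chr13:33918107-33918193, both on the minus strand. Those of Serpinb1b, Serpinb6b and Serpinb9 are at chr13:33093773-33093868, chr13:32978207-32978287 and chr13:33015699-33015782, all on the plus strand. The stretches are 81 to 96 bases long. Over their whole coding sequences Serpinb1a and Serpinb1b shared 90.7% of aligned bases and Serpinb6a and Serpinb6b shared 86.3%, whereas Serpinb8 shared 66.5 to 70.4% with the other 5 genes. Serpinb6c was the closest copy of Serpinb6a (87.4%) and of Serpinb6b (87.9%) and had 26 reads in all. Serpinb9b was that of Serpinb9 (86.4%) and had 0 reads. Reads shared between such close copies could be split or lost in counting. How the authors treated such reads is not given in the sources used here.

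Gene-assigned reads came to 15536084 to 16732960 in the TKO libraries and to 15803016 to 16961817 in the THC libraries. Rbl1, the gene of p107, had a normalized count of 24.9 ± 14.9 in TKO and 554 ± 80.5 in THC (SD, n = 3 each). All 8 markers of neural stem cells and astrocytes passed the filter on low values, as did all 6 neuroblast markers. Markers of vessels, oligodendrocytes and microglia were also present. The T cell genes Cd3e, Cd3d, Cd3g and Cd8a and the neutrophil genes Ngp, Camp, Ltf and Ly6g had no reads in any library. The other genes of these lists had reads. Trac was at 44.4 to 52.7 in TKO and 20.8 to 31.1 in THC, and Nkg7, Klrb1c, S100a8 and S100a9 were below the filter.

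Of the 69 serpins, 34 had no reads in any library. A count of 0 allows up to 0.177 to 0.193 CPM in these libraries (3 reads of the total, for counting error only). Another 22 had 1 to 52 reads in all, and 13 reached a normalized count of 10 in at least 3 samples and were tested, 6 of clade B, 6 of the secreted clades and Serpinh1. This is 18.8% of the serpins, against 31.1% of all genes. Of the 13, 12 were at 10 or more in every library, and Serpind1 fell under 10 in 1 TKO library.

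Of these 13 genes, 5 rose and 6 fell in TKO (limma with a batch term, Benjamini-Hochberg adjusted p under 0.05 over 17278 genes). Over all genes tested, 14.3% were higher, 13.6% were lower and 27.9% were called in either direction. Of the 6 clade B genes, 1 rose and 4 fell, with a median log2 change of -0.86. Of the 6 genes of the secreted clades, 3 rose and 2 fell, with a median of 0.70, and the median of all genes tested was 0.00. The difference between the clades was not tested. The TKO and THC values did not overlap for 11 of the 13 genes, against 38.9% of all genes tested. Without TKO 1, TKO 3 or THC 1 the number of serpins that rose was 3, where 11.2%, 11% and 11.5% of all genes rose. The share of all genes that rose was 10.9%, 12.4% and 12.8% without TKO 2, THC 2 and THC 3, 11.4% in November alone and 7.12% without the filter. The share called in either direction was 27.7% with edgeR, 28.1% with DESeq2 and 23.6% with a replicate block in place of batch.

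**Figure D1:**
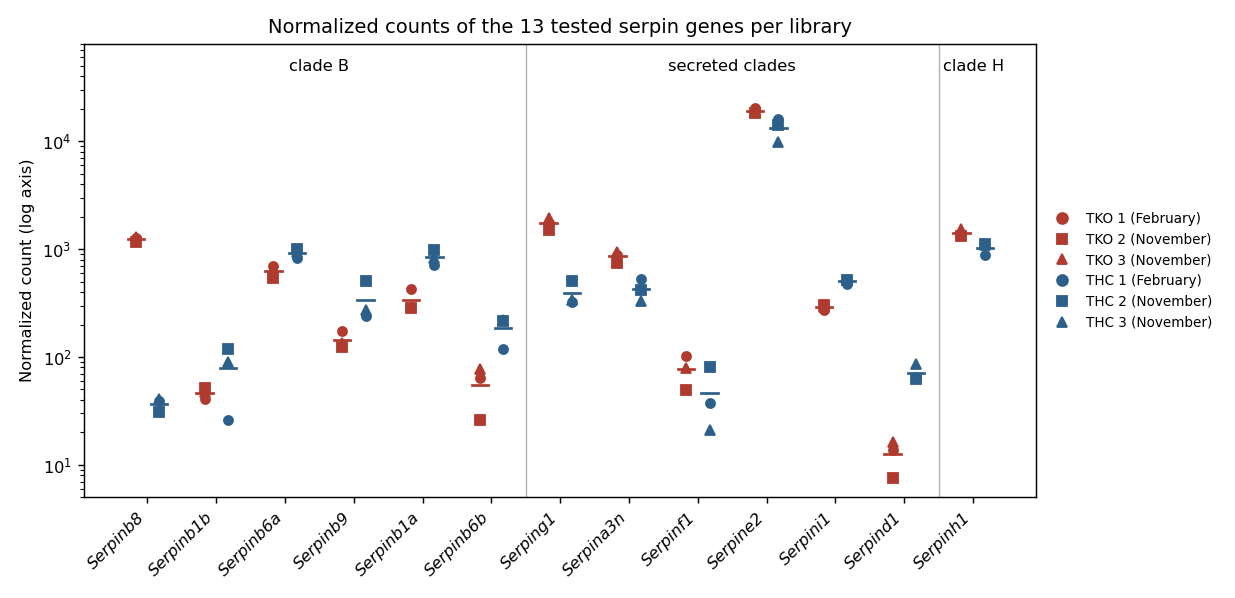
Normalized count (log axis) of the 13 tested serpin genes in each library, with TKO left of THC for each gene, a marker shape per replicate and a bar at the mean of 3. Serpinb8 sits at 1176 to 1296 in TKO and at 31.2 to 40.4 in THC, and Serpine2 is the serpin with the highest counts in both genotypes.

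Serpinb8 stood out among the clade B genes. Its product has been shown, for the human protein, to inhibit the proprotein convertase furin. Serpinb8 (chromosome 1, 107590006 to 107610484, plus strand, GRCm38) had normalized counts of 1279, 1176 and 1296 in the TKO libraries, against 39.1, 31.2 and 40.4 in the THC libraries. Every TKO value lay far above every THC value, and the values within a genotype were close together. The ratio of the means was 33.9 (log2 change 5.05, SE 0.19, adjusted p = 4.8e-08). The February pair differed by 5.00 and the November libraries by 5.08. By p-value it was number 2 of the 17278 genes tested, and by size of the rise number 6. The authors' deposited table gives a log2 change of 5.09 (SE 0.21) for this gene. Furin, its target in human cells, was at 96.2 ± 6.28 in TKO and 94.5 ± 21.8 in THC (adjusted p = 0.91).

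The other 5 tested clade B genes lie in a cluster on chromosome 13 and had lower means in TKO. Serpinb1a (32842092 to 32851185, minus strand) is a counterpart of the human inhibitor of neutrophil elastase, cathepsin G and proteinase 3. It had counts of 428, 286 and 291 in TKO, against 716, 985 and 829 in THC, a log2 change of -1.34 (SE 0.19, adjusted p = 0.00024). The groups did not overlap, and the February pair was the closest to each other (-0.74, and -1.64 in November). Its close copy Serpinb1b (33078575 to 33094380, plus strand) was at 41.0, 51.6 and 47.3 in TKO and at 26.1, 119 and 89.9 in THC. These groups overlapped, and the log2 change of -0.49 (SE 0.38) did not pass (adjusted p = 0.38). With THC 1 or TKO 1 left out, February holds only 1 genotype, and the change is that of November alone, -1.05. It passed without THC 1 (adjusted p = 0.047) and in November alone (adjusted p = 0.038), but not without TKO 1 (adjusted p = 0.053).

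Serpinb6a (33917918 to 34002794, minus strand), whose human counterpart inhibits cathepsin G, was the clade B gene with the smallest called change. Its counts were 691, 537 and 641 in TKO and 821, 996 and 938 in THC. TKO values were all lower (log2 change -0.56, SE 0.15, adjusted p = 0.013), but the gene did not pass without TKO 2 (adjusted p = 0.073) or THC 2 (0.053). Its annotated exons share 762 bases with Nqo2, 584 with 1110046J04Rik and 241 with Ripk1, all on the opposite strand, and the library chemistry did not keep the strand. The counts of those genes were 641 to 729 in TKO and 506 to 544 in THC for Nqo2, and 812 to 1009 in TKO and 591 to 812 in THC for Ripk1. 1110046J04Rik was at 11.7, 16.1 and 20.3 in TKO and at 19, 41.6 and 59.6 in THC. Its mean was thus lower in TKO, as that of Serpinb6a was, whereas those of Nqo2 and Ripk1 were higher. Reads of overlapping exons cannot be told apart, so the value of Serpinb6a is uncertain to that extent. Serpinb6b (32965209 to 32979067, plus strand) was at 63.4, 25.8 and 77.3 in TKO and at 119, 215 and 220 in THC, with TKO 2 the lowest library. It fell by 1.80 (SE 0.40, adjusted p = 0.0053). Serpinb9 (33003250 to 33017957, plus strand), whose human counterpart inhibits granzyme B, was at 174, 125 and 135 in TKO and at 242, 502 and 274 in THC, with THC 2 the highest. It fell by 1.16 (SE 0.27, adjusted p = 0.0072). For all 4 genes that fell, the February difference was smaller than the November one. The interaction of batch and genotype did not pass for any of the 13 serpins (lowest adjusted p = 0.41, for Serpinb1a, where 0.341% of all genes passed).

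The summed level of clade B was not tested. As normalized counts its genes summed to 2475 ± 236 in TKO and 2412 ± 444 in THC, and per kilobase of merged exons to 621 ± 68.8 in TKO and 770 ± 156 in THC. The normalized counts without Serpinb8 summed to 1225 ± 184 in TKO and 2375 ± 448 in THC. Per kilobase of merged exons, Serpinb8 made up 42.2 ± 3.11% of the clade B level in TKO and 1.04 ± 0.316% in THC. Serpinb1a made up 23.3 ± 3.38% in TKO and 47.8 ± 2.40% in THC (SD, n = 3 each). The order of levels per kilobase thus differed. In TKO it was Serpinb8 (261 ± 13.6), Serpinb1a (145 ± 35.2) and Serpinb6a (115 ± 14.5), of which Serpinb1a and Serpinb6a did not differ beyond their spread. In THC it was Serpinb1a (366 ± 58.7), Serpinb6a (170 ± 16.5), Serpinb9 (97.1 ± 40.7) and Serpinb6b (81.8 ± 25.2), with the last 2 within their spread, and Serpinb8 (7.69 ± 1.04) was the lowest tested member of the clade.

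**Figure D2:**
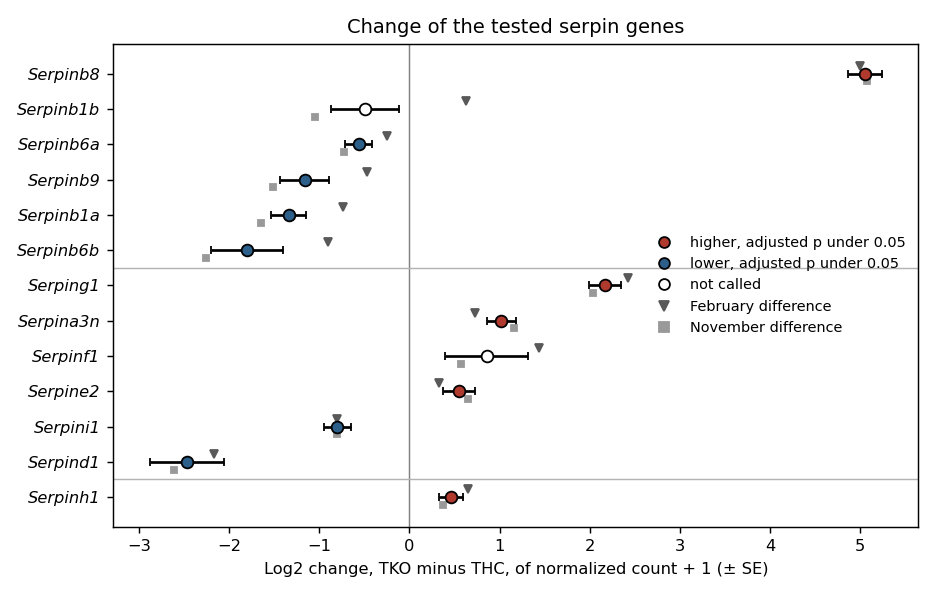
Log2 change of TKO minus THC (of the normalized count + 1) with its SE for the tested serpins, by class from top to bottom clade B, secreted clades and clade H, filled where called. Small triangles and squares are the February and November differences. Serpinb8 is at 5.05, and the other clade B genes lie between -1.80 and -0.49.

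The clade B genes lie in 2 clusters. On chromosome 1, 12 members lie between 106861173 and 107610484, and 8 of them had no reads. Serpinb8, at the end of the cluster, was the only 1 that could be tested. Serpinb5, at the other end, had 7, 9 and 4 reads in TKO and none in any THC library. Serpinb2, which encodes plasminogen activator inhibitor 2, had 4, 8 and 4 reads in TKO and 6, 9 and 0 in THC, and Serpinb10 had 0, 5 and 2 reads in TKO and none in THC. The nearest tested genes outside the family were Vps4b, 793 kb before Serpinb8, with a log2 change of -0.01 (adjusted p = 0.96), and Cdh7, 2372 kb after it, with 0.48 (adjusted p = 0.22). On chromosome 13, 17 members lie between 32842092 and 34002794. Of these, 5 were tested, all 5 with lower means in TKO, 4 of them called, and 8 had no reads. The nearest tested genes outside this cluster and not overlapping it were Wrnip1, with a change of -0.18 (adjusted p = 0.41), and Bphl, with -0.42 (adjusted p = 0.13).

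**Figure D3:**
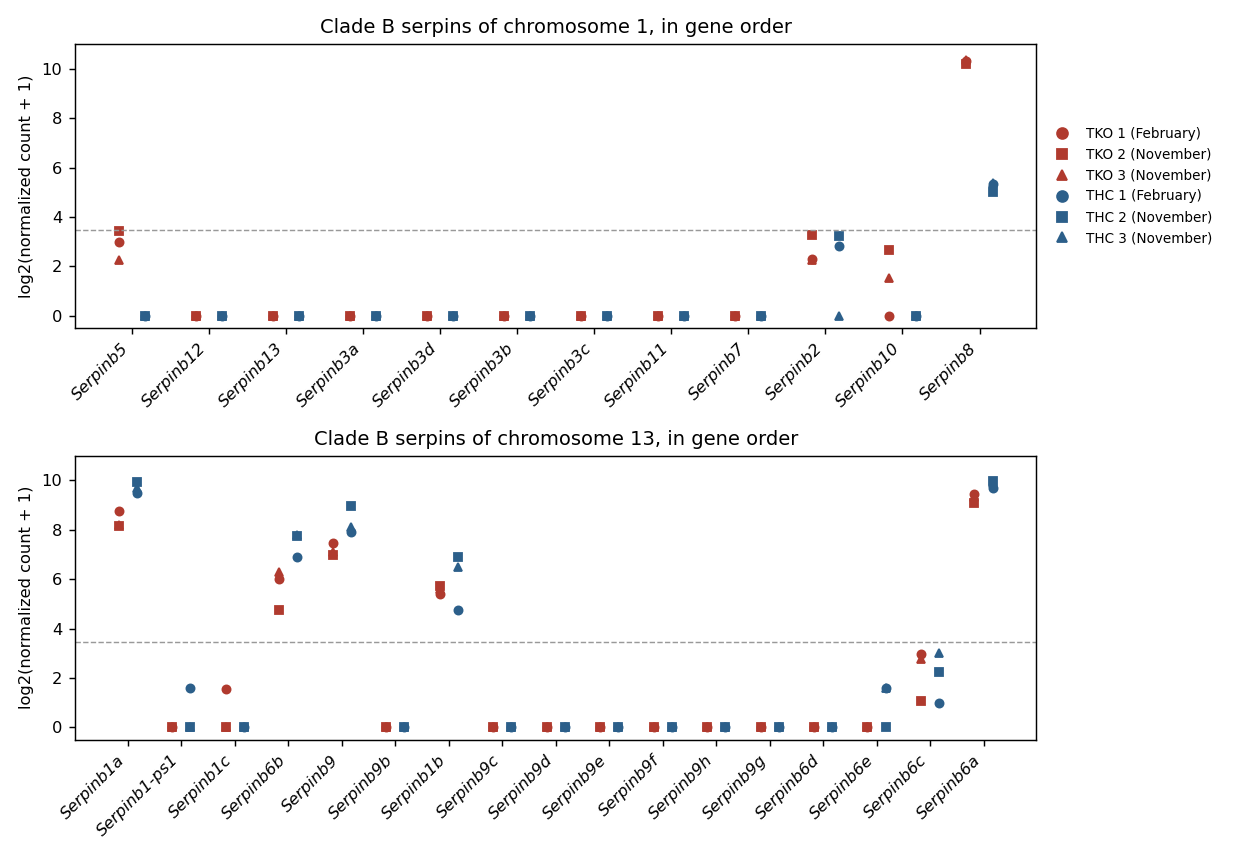
Log2(normalized count + 1) per library of the clade B genes of chromosomes 1 and 13 in gene order (not to scale), TKO left of THC, with a dashed line at a count of 10. Serpinb8 is the only gene of the chromosome 1 cluster above the line in THC and TKO, whereas on chromosome 13 Serpinb1a, Serpinb6b, Serpinb9, Serpinb1b and Serpinb6a are above it.

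RefSeq promoter windows (GRCm38.p6) were at hand for 11 of the 13 tested genes, 12 windows in all. The 250 bases before the start of Serpinb8 are shown because it is the serpin with the largest change, and those of Serpinb6a and Serpinb9 because they hold letters of an interferon-stimulated element. Capitals mark matches to 4 motifs searched on both strands. These were an E2F motif (TTTCCCGC or TTTGGCGC), the cell cycle homology region that the DREAM complex binds (CHR, TTTGAA or TTCGAA), an interferon-stimulated response element (ISRE, TTTC, any 2 bases, then TTTC) and a STAT element (GAS, TTCNNNGAA).
Serpinb8: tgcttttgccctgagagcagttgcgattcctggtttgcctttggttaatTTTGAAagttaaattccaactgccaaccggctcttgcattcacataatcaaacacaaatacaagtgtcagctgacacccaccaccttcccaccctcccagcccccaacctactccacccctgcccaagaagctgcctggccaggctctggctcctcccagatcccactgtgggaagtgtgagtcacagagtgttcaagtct
Serpinb6a: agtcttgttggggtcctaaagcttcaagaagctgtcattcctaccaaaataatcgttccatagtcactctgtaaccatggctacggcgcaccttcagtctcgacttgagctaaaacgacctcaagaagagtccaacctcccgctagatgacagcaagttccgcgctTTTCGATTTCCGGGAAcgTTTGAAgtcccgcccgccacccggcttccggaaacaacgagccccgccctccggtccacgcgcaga
Serpinb9: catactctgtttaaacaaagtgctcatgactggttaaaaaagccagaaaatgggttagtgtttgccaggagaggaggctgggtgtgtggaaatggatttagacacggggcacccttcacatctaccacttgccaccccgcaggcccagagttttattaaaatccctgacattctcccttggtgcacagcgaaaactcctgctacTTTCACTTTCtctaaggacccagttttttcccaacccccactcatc
These windows, of which that of Serpinb6a is 1 of 2 for this gene, are chr1:107589756-107590005 on the plus strand for Serpinb8, chr13:34002795-34003044 on the minus strand for Serpinb6a and chr13:33004291-33004540 on the plus strand for Serpinb9. Serpinb8 had 1 CHR match that begins 201 bases before the start, a match that 17.1% of all 32851 windows of this length hold. Of the 12 windows of tested serpins, 3 held CHR letters, those of Serpinb8, Serpinb6a and Serpinb1b (not shown, 218 bases before the start). Serpinb6a had an ISRE match that overlaps a GAS match, and a CHR match, and Serpinb9 had an ISRE match. ISRE letters were in 2.98% and GAS letters in 7.02% of all windows. No tested serpin window held the E2F letters, which 1.30% of all windows hold. A match describes these letters only and is not evidence of binding.

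Among the secreted clades, Serping1 rose the most. It encodes the C1 inhibitor, which blocks the complement proteases C1r and C1s and also plasma kallikrein and factor XII. Serping1 (chromosome 2, 84765387 to 84775444, minus strand) was at 1743, 1506 and 1955 in TKO, against 324, 509 and 339 in THC. The groups were well apart. The gene rose 4.44-fold by the means, or 2.17 on the log2 scale (SE 0.18, adjusted p = 5.3e-06). The nearest tested genes on both sides also rose. These were Gm19426, 21.7 kb away (1.59, SE 0.38, adjusted p = 0.0078), and Ube2l6, an enzyme of ISG15 conjugation 23.4 kb away (1.81, SE 0.13, adjusted p = 2.7e-06). Of the C1 protease genes, C1ra was at 47.7 ± 6.01 in TKO and 9.83 ± 0.67 in THC and rose by 2.16 (SE 0.40, adjusted p = 0.0017), while C1s1 was at 83.6 ± 19.1 in TKO and 65.7 ± 15.3 in THC (adjusted p = 0.45).

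Serpina3n (chromosome 12, 104406729 to 104414329, plus strand), a counterpart of human alpha-1-antichymotrypsin and a marker of reactive astrocytes, had counts of 886, 745 and 947 in TKO and 532, 421 and 332 in THC. All TKO values were higher, 2.01-fold by the means (log2 change 1.02, SE 0.16, adjusted p = 0.00067). The closest copy over its coding sequence was Serpina3c, at 86.0% of aligned bases, which had 2 reads in all. Serpina3n was the only member of clade A that could be tested. Of the 29 members of that clade, 18 had no reads.

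Serpine2 encodes protease nexin 1, a glial inhibitor of thrombin and of plasminogen activators. It was by far the most abundant serpin, with 48.5 ± 2.08% of the family's level per kilobase in TKO and 48.4 ± 7.67% in THC. Serpine2 (chromosome 1, 79794197 to 79861180, minus strand) was at 20450, 18214 and 18871 in TKO and at 16258, 14066 and 9869 in THC, with THC 3 the lowest. The groups did not overlap (log2 change 0.55, SE 0.18, adjusted p = 0.039). This call ended in 9 of the 14 alternatives, among them leaving out TKO 1, TKO 2, TKO 3, THC 1 or THC 3 (adjusted p = 0.085, 0.12, 0.11, 0.094 and 0.11). Without TKO 1 or THC 1, February holds only 1 genotype, so both fits give the same change as November alone (0.65). These alternatives are thus not separate checks.

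Serpini1 and Serpind1 moved the other way. Serpini1 (chromosome 3, 75557547 to 75643495, plus strand) encodes neuroserpin, a neuronal inhibitor of tissue plasminogen activator. It was at 273, 301 and 291 in TKO and at 478, 518 and 516 in THC, and fell by 0.80 (SE 0.15, adjusted p = 0.0016), by the same amount in both batches. Serpind1 (chromosome 16, 17331371 to 17343575, plus strand) encodes heparin cofactor II, a thrombin inhibitor. It was at 13.7, 7.52 and 16.4 in TKO and at 65.2, 62.3 and 86.9 in THC. It had the largest fall among the 13 tested serpins (log2 change -2.47, SE 0.41, adjusted p = 0.00086), and the THC mean was 5.70-fold that of TKO. Serpinf1 (chromosome 11, 75409769 to 75422701, minus strand) encodes pigment epithelium-derived factor, a serpin without protease inhibition that is known to promote the self-renewal of SVZ stem cells. Its counts were 102, 49.4 and 79.2 in TKO and 37.1, 81.2 and 21.2 in THC. The groups overlapped and the change of 0.86 (SE 0.46) did not pass (adjusted p = 0.19). Without THC 2, the highest THC library, it passed at 1.49 (adjusted p = 0.013).

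Serpinh1, the HSP47 chaperone of collagen in the endoplasmic reticulum, is neither secreted nor a protease inhibitor. Serpinh1 (chromosome 7, 99345376 to 99353239, minus strand) was at 1391, 1328 and 1536 in TKO and at 884, 1116 and 1096 in THC. The log2 change of 0.46 passed (SE 0.13, adjusted p = 0.017), but not without TKO 1 (0.37, adjusted p = 0.12), TKO 3 (0.43, adjusted p = 0.069) or THC 1 (0.37, adjusted p = 0.12). The fits without TKO 1 and without THC 1 both give the change of November alone, so they are not separate checks. Per kilobase, the levels in TKO were in the order Serpine2 (2314 ± 139), Serping1 (746 ± 96.6), Serpinh1 (581 ± 43.5) and Serpina3n (416 ± 50.4). In THC they were Serpine2 (1617 ± 392), Serpinh1 (422 ± 52.6), Serpinb1a (366 ± 58.7), Serpina3n (208 ± 48.5), Serpinb6a (170 ± 16.5) and Serping1 (168 ± 44.2). In THC, Serpinh1 and Serpinb1a did not differ beyond their spread, nor did Serpina3n, Serpinb6a and Serping1.

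Serpins below the filter had 217 reads in TKO and 110 in THC in all, and no test was made of them in the reported fit. Of the 22 genes, 11 had 10 reads or more. Serpinc1, antithrombin, had 7, 11 and 16 reads in TKO and 9, 6 and 3 in THC. Serpine3 (18 reads in TKO and 18 in THC), Serpinf2 (19 and 15), Serpinb2 (16 and 15), Serpinb6c (14 and 12), Serpina10 (2 and 8) and Serpina9 (4 and 6) had similar or low sums, TKO given before THC. Only Serpinb5, Serpina3i and Serpina3f had reads in every TKO library and none in THC. Serpinb5 encodes maspin. Serpina3i had 4, 6 and 3 reads and Serpina3f had 2, 5 and 3 reads in TKO. Against a floor of 3 reads over the THC group, the summed normalized counts in TKO were at least 6.89-fold higher for Serpinb5, 4.48-fold for Serpina3i and 3.46-fold for Serpina3f. Serpina3f and Serpina3i belong to the same chromosome 12 cluster of clade A as Serpina3n and carry related sequences, so their few reads are uncertain.

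The levels of all clades outside B and H together were 22203 ± 1327 in TKO and 14864 ± 3340 in THC as summed normalized counts, and 3024 ± 356 in TKO and 1466 ± 147 in THC without Serpine2.

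Genes that act with serpins were examined in lists. Of 11 tested genes of the plasminogen, coagulation and serpin receptor list (18 listed), none rose and 4 fell (limma), with a median of -0.42. Over all genes tested 14.3% rose and 13.6% fell, and the counts of this and the following lists stand against these shares. At an unadjusted p under 0.05, or with edgeR or DESeq2, 0 rose as well, and without the filter on low values 1 did. F3, which encodes tissue factor, was at 3020 ± 448 in TKO and 10806 ± 3733 in THC (log2 change -1.79, SE 0.18, adjusted p = 2.1e-05). Vtn, vitronectin (-1.47), which is also a mural cell marker, Thbd, thrombomodulin (-1.59), and the reelin receptor gene Lrp8 (-0.47) fell too. Plat, tissue plasminogen activator, was at 2224 ± 336 in TKO and 3016 ± 780 in THC and did not pass (adjusted p = 0.11). Nor did the thrombin receptor gene F2r (log2 change 0.12, adjusted p = 0.54) or Lrp1, a receptor that clears serpin complexes (log2 change -0.30, adjusted p = 0.16). Prothrombin (F2) and plasminogen (Plg) were near 0, with mean counts of 7.15 and 1.61 in TKO and 3.34 and 0.983 in THC. Plau, the gene of urokinase, was below the filter and not tested, at 8.78, 10.7 and 28 in TKO and 0, 1.89 and 0 in THC, with every TKO value higher.

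Of 11 tested genes of the complement C1, granule and caspase list (20 listed), 3 rose and 1 fell (median 0.31). Beside C1ra, St14, the membrane protease matriptase, rose by 3.16 (SE 0.33, adjusted p = 2.5e-05) and Casp8 by 0.98, while Masp1 fell by 0.78. Gzmb, the gene of granzyme B, had no reads in any library. Of 11 tested cathepsin genes (13 listed), 2 rose and 4 fell (median -0.19). Ctsf (-1.31), Ctsa (-0.86), Ctso (-0.51) and Ctsk (-1.23) fell, and Ctsc and Ctss rose (0.69 and 1.08). The TKO and THC values of Ctsc and of Ctss overlapped. Without TKO 2, 1 rose and 2 fell, where 10.9% of all genes rose and 9.83% fell. Without THC 3, 1 rose, and with no batch term 0 rose, where 12.8% and 12% of all genes rose. Of 20 tested collagen and collagen-modifying genes (21 listed), 5 rose and 3 fell (median 0.08), against 14.3% and 13.6% of all genes. The number that fell was thus near the background. Col5a2 (0.98), Kdelr2 (0.62), Col6a1 (2.51) and Col1a2 (0.74) rose, and P3h1, Col4a2 and P4ha1 fell (-1.10, -0.99 and -0.52). Without TKO 3 or THC 3, 3 of them rose.

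Of 20 tested genes of protease inhibitors of other families (25 listed), 4 rose and 7 fell (median -0.34), against 14.3% and 13.6% of all genes, so the number that rose was not far from the background. A2m, the broad inhibitor alpha-2-macroglobulin, was at 1325 ± 91.6 in TKO and 180 ± 66.5 in THC (log2 change 2.93, SE 0.19, adjusted p = 1.8e-06). Its relative Cd109 (2.77) and the metalloprotease inhibitors Timp1 (1.68) and Timp2 (0.43) rose, and Itih3 (-1.42), Spock1 (-1.88), Spock3 (-1.47) and Timp4 (-0.83) fell.

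Serpina3n and Serping1 are often listed among reactive astrocyte genes and were left out of the lists here. Of 12 pan-reactive genes, 8 rose and 1 fell (median 1.71), with Cxcl10 (4.79), Vim (2.01), Cd44 (2.53) and Gfap (2.01) among those that rose and Cp (-0.52) the gene that fell. Of 10 A1-type genes, 6 rose and 1 fell (median 0.82), with Psmb8 (3.30), H2-D1 (2.14), Gbp2 (1.64) and Iigp1 (2.77) higher and Fbln5 (-0.90) lower. Of 10 tested A2-type genes (12 listed), 7 rose and none fell (limma, median 1.77; 0 fell at an unadjusted p under 0.05 and with edgeR or DESeq2), with Emp1 (2.92), Cd109 (2.77), Tgm1 (3.19) and Ptgs2 (2.03) higher. Without TKO 1 the numbers that fell were 2, 2 and 1, where 11.7% of all genes fell. Without THC 1 they were 2 in the A1 and 1 in the A2 list, where 11.3% of all genes fell. Without TKO 2 or THC 2 none fell in the pan-reactive and A1 lists, where 9.83% and 9.47% of all genes fell.

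**Figure D4:**
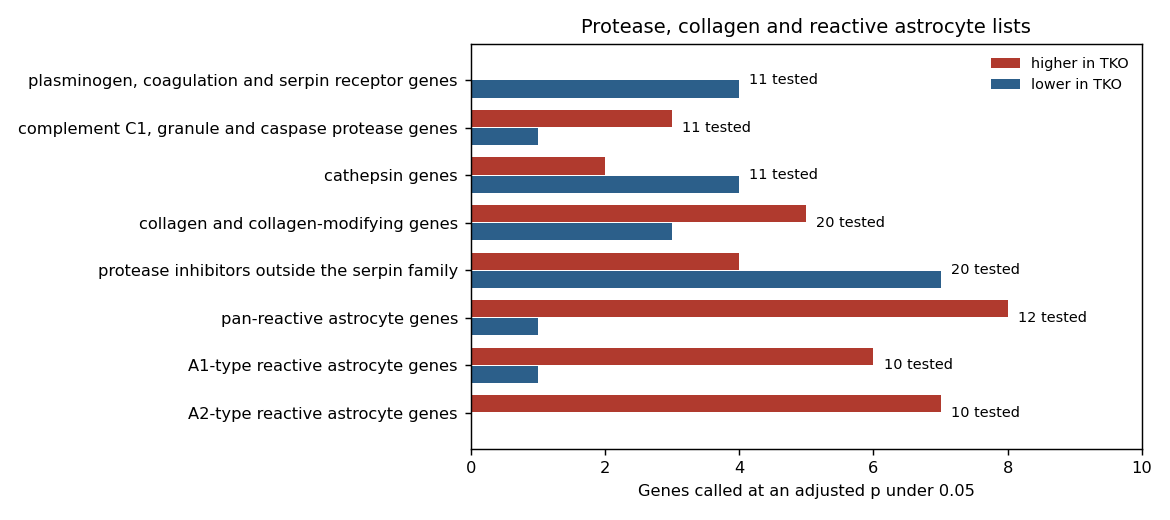
Number of genes called higher (upper bar) and lower (lower bar) in TKO at an adjusted p under 0.05 in each list, with the number tested. The reactive astrocyte lists have 8, 6 and 7 genes higher, and the plasminogen list has none higher and 4 lower.

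Markers of other cells moved with genotype beside these results. In bulk samples, fewer cells of a type and less RNA per cell cannot be told apart. Of 7 endothelial and 7 mural markers, 6 in each list fell and none rose. Their summed counts were 2092 to 2954 in TKO and 4502 to 10620 in THC for the endothelial list, and 3944 to 6679 in TKO and 10941 to 17012 in THC for the mural list. Of 7 oligodendrocyte lineage markers 5 fell, with sums of 14804 to 26356 in TKO and 72963 to 88138 in THC. Of 5 tested neuron markers 3 fell, with sums of 1892 to 2328 in TKO and 3252 to 3963 in THC, and of 6 neuroblast markers 4 fell (21149 to 29484 in TKO, 30843 to 45579 in THC). Of 8 microglia and macrophage markers 1 rose and none fell (1232 to 5202 in TKO, 905 to 3904 in THC). The neural stem cell and astrocyte list had 3 higher and none lower (112510 to 146066 in TKO, 86619 to 156909 in THC). In this list 3 genes were lower at an unadjusted p under 0.05, 3 with DESeq2 and 0 with edgeR. Fibroblast and meningeal markers had 2 of 5 tested lower (168 to 230 in TKO, 243 to 461 in THC). Of 6 ependymal markers 3 fell (4729 to 6447 in TKO, 3714 to 13158 in THC). These 3, Ccdc153, Tmem212 and Rarres2, had log2 differences of 0.11, 0.25 and -0.02 in the February pair. In November the differences were -1.35, -2.10 and -1.52, and the TKO and THC values of all 3 genes overlapped. None of 4 tested choroid plexus markers passed (476 to 2493 in TKO, 395 to 715 in THC). The upper end in TKO rests on 1 library, as Ttr, which was not tested, was at 1887 in TKO 1. Ttr was at 1.07 and 12.6 in TKO 2 and TKO 3 and at 4.01, 8.5 and 1.01 in THC. The T and NK cell list, of which only Trac was tested and rose, summed to 45.4 to 59.1 in TKO and 20.8 to 33.1 in THC, and the neutrophil list to 1.07 to 3.86 in TKO and 1.89 to 2.02 in THC. In the other marker lists, each direction without a call by limma also had 0 calls at an unadjusted p under 0.05 and with edgeR or DESeq2. The part of these cells in the changes of the serpins was not tested.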

How the data were processed

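RNA-seq libraries of 6 pools of sorted SVZ cells were made with SMART-Seq v4 and Nextera XT kits, which do not keep the strand, from at least 35 ng of RNA, per the labels' protocols. The series text calls them biological replicates. HISAT2, featureCounts of Subread, DESeq2 and GRCm38 are named in the submitters' processing notes, with versions not given in the sources used here.

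The authors' deposited table holds a normalized count per sample, a signal scaled by 1 factor per sample. All values were whole multiples of 1 step per column (100% within 0.001 of a read), which gave the reads per library. Other columns are, per the file headers, the authors' log2 fold changes of TKO over THC with their errors, p-values and adjusted p-values deposited by the authors, and a test statistic and a weight, each a score deposited by the authors. Only a log2 change with its SE is quoted from these. Libraries of 1 genotype differed beyond sampling noise (chi-square over its degrees of freedom 15.5 to 44.5). No sample column was left unmapped.

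Genes at 10 or more in at least 3 samples were tested with limma 3.58.1 (R 4.3.3) on log2(value + 1), with an intensity trend, batch and genotype, which understates changes of low genes. Residual degrees of freedom were 3. P-values were adjusted by Benjamini-Hochberg over 17278 genes. The test was also run on simulated counts with 1 spread setting for all genes and no batch effect. Those are simpler than these libraries, so no error rate is drawn from that run. Means are ± SD. Levels per kilobase use merged exons of GENCODE M21, which gave positions for all 69 serpins. Coding sequences were aligned with Biopython 1.88, comparing pairs aligned over at least 80% of the length. Alternatives were a pseudocount of 5, no filter, TMM scaling, edgeR 4.0.16 and DESeq2 1.42.0 on the recovered reads, no batch term, a replicate block, November alone and leaving out each sample.

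All tested serpins are named, others where they had 10 reads (1 of these is not reported here), and up to 4 called genes per direction and list. Genes named beside these, such as Serpinb10, neighbours, Furin and Plat, were picked after their values were seen. The members and lists were chosen with earlier results of these data known.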

Additional observations from a re-analysis of the deposited data

Results flagged for a closer look

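Serpinb1b went in opposite directions in the batches. The log2 difference of TKO minus THC was 0.63 in the February pair and -1.05 in November, where both TKO libraries lay below both THC libraries. With limma, the interaction of batch and genotype was -1.68 (November minus February) and did not pass (adjusted p = 0.52), and the February difference rests on 1 library per genotype. With 3 samples in a group, no sample was examined as an outlier.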

How the results depend on the processing

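For the 13 tested serpins, 164 of 182 values over 14 alternatives kept their direction and their side of the threshold, 15 no longer passed, 3 newly passed and none changed sign. The alternatives are not independent, as leaving out TKO 1 or THC 1 gives the same log2 changes as November alone. Serpinb8, Serping1, Serpinb1a, Serpina3n, Serpind1, Serpini1, Serpinb6b and Serpinb9 passed in all 14. With November samples only, 3 serpins were higher and the clade B median was -1.28. With no filter on low values, 2 clade B genes were higher, the second being Serpinb5 (2.89, SE 0.65, adjusted p = 0.010), and Serpina3i (adjusted p = 0.022) and Serpina3f (adjusted p = 0.038) passed too, whereas Serpine2 did not (adjusted p = 0.051). Leaving out 1 sample at a time gave 3 to 6 serpins higher, a clade B median of -1.28 to -0.65 and a secreted clade median of 0.39 to 0.87. On recovered reads edgeR and DESeq2 each called 5 serpins higher and 6 lower, and 4778 and 4856 genes in all. With the replicate block in place of batch, 4 serpins were higher and 6 lower, and Serpine2 did not pass (adjusted p = 0.078). Same-numbered samples had correlations of their deviations of 0.231, -0.106 and 0.141, and differently numbered ones of -0.282 to 0.183. Deviations from means of 3 samples are not independent, and TKO 1 and THC 1 also share the February batch. These correlations thus cannot decide whether the numbers pair the samples. Of 224 counts of called genes in the lists, 22 moved by over 1.5 times. Why these values moved was not tested. Genes with a few reads are limited by depth, and p-values measure the spread between pools of mice.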

Other observations

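Angiotensinogen (Agt), a secreted serpin without protease inhibition that carries another kind of symbol and so was no member, is an astrocyte product in the brain. Agt had normalized counts of 192, 199 and 203 in TKO and 472, 603 and 416 in THC. The groups did not overlap, and limma gave a log2 change of -1.31 (SE 0.18, adjusted p = 0.00022). The February difference was -1.29 and the November one -1.31. It was chosen after its values were seen.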
